A study of Mus musculus with 19 samples.

Results

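The mouse genome holds a large family of type 2 vomeronasal receptor (V2r) genes, and the 115 receptor genes of that family that lie outside its subfamily C were followed here across 6 groups of vomeronasal organ (VNO) libraries. They were chosen by symbol: of 238 genes whose symbol starts with Vmn2r, 116 named as pseudogenes (-ps) and the 7 family C genes Vmn2r1 to Vmn2r7 were left out, which left 115 of the 35596 genes of the deposited data. The annotation calls 114 of them protein coding and 1, Vmn2r125, a pseudogene.

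V2rs are G protein-coupled receptors with a long extracellular domain that binds peptide and protein pheromones, such as exocrine gland-secreting peptides and major urinary proteins. They are made by basal vomeronasal sensory neurons (VSNs), which signal through the G protein subunit Gαo and the channel Trpc2, whereas apical VSNs use Gαi2 and type 1 receptors (V1rs). A basal VSN expresses few V2rs outside family C, together with a broadly expressed family C coreceptor, so the RNA of one receptor gene in a whole organ is the sum over the small set of neurons that chose it.

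Whole VNOs of female mice at postnatal day 21 were used, in 6 groups of 3 libraries that the labels name biological replicates. Smad4, the mediator shared by TGFβ and BMP signaling, was removed with Cre recombinase in 2 lines. The AP2e cKO group carried 1 copy of AP2eCre, a Cre inserted in the gene of the transcription factor Tfap2e and active in immature basal VSNs, with Smad4 flox/flox. The AP2e Het group carried 1 copy of AP2eCre and no floxed allele is named for it, and the AP2e WT group had no Cre. The OMP cKO, OMP Het and OMP WT groups were the same with OMPCre, a Cre inserted in Omp and active in mature VSNs of both kinds. The labels call both WT groups wild type, whereas the study's design text and methods give Smad4 flox/flox without Cre for those controls. A Het mouse thus differs from its WT control both in the Cre allele, which replaces 1 copy of Tfap2e or Omp, and, by the design text, in the floxed alleles, and these cannot be told apart. The labels give the cell types immature basal, or mature apical and basal, VSNs, but the tissue was the whole organ, and markers of apical VSNs, sustentacular cells and glands were present in every library.

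Smad4 itself was at 81.0, 70.5 and 39.6 CPM (counts scaled to 1000000 per library, with TMM factors) in the AP2e WT libraries, 43.9, 79.7 and 41.5 in AP2e Het and 66.1, 66.5 and 33.8 in AP2e cKO, and the groups overlapped. With OMPCre it was at 79.0, 73.4 and 64.8 in WT, 83.9, 76.3 and 77.6 in Het and 61.9, 62.5 and 54.4 in cKO. There the cKO libraries lay wholly below WT and Het. Smad4 did not pass the test in either line. The floxed allele loses an exon, whereas these counts cover the whole gene in the whole organ. By in situ hybridization for that exon and by immunostaining, the study reported Smad4 loss in basal VSNs with AP2eCre. Total estimated counts ran from 43385516 to 134042284 per library, with the AP2e WT libraries the shallowest of their line. The 4 gland and lumen markers found, of 5 listed, summed to between 31164 and 51655 CPM in AP2e WT, 33580 and 34996 in AP2e Het and 18248 and 23506 in AP2e cKO. The 2 respiratory cilia markers (Foxj1 and Dnah5) also lay lower in AP2e cKO, at 227 to 320 CPM against 331 to 449 in WT and 346 to 396 in Het, and the 3 main olfactory markers lay at 165 to 198 CPM in AP2e cKO against 127 to 162 in WT and 140 to 198 in Het. The main olfactory markers of the OMP line lay at 177 to 221 CPM in Het, above 82 to 117 in WT and 89 to 122 in cKO. The sustentacular markers reached 2613 CPM in AP2e Het replicate 1, against at most 1259 in any library of the other 5 groups. None of these marker lists had a gene at 0, and their part in the V2r values was not tested.

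A receptor's count depends on how much of its sequence it shares with its neighbours. Of the 115 genes, 114 had a transcript sequence in the reference used here. A median of 91.8% of a gene's 75-base windows, the length of a read, occurred in no other gene, and 64 genes were over 90%. In contrast, 22 genes were under 50%, and 18 of these lay in a single cluster of 24 genes on chromosome 7 that runs from Vmn2r29 to Vmn2r52. The window below is shown because it is the extreme case. It lies in coding exon 3 of 6 of Vmn2r40 (chr7:8920762-8920836, minus strand, GRCm38) and occurs unchanged in 19 of the 115 genes and in 40 genes in all, so a read from it cannot be assigned to one receptor by sequence alone.
Vmn2r40 exon 3: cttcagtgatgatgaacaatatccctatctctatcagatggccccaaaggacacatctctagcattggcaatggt

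The stretches just before the start sites of 4 receptors that differed between AP2e groups are printed next, so that their changes can be read beside their sequence. They come from RefSeq promoters on GRCm38.p6, and only bases before both the RefSeq and the GENCODE start are given. Capitals mark matches to CAGAC (the core SMAD site), GGCGCC (a BMP-type SMAD site), CCCNNGGG (an EBF-type site) or TAATTA (a homeodomain core), searched on both strands. Vmn2r40 lies at chr7:8931436-8931652 (minus strand), Vmn2r81 at chr10:79247527-79247691 (plus strand), Vmn2r85 at chr10:130429704-130429862 (minus strand) and Vmn2r98 at chr17:19053243-19053459 (plus strand).
Vmn2r40: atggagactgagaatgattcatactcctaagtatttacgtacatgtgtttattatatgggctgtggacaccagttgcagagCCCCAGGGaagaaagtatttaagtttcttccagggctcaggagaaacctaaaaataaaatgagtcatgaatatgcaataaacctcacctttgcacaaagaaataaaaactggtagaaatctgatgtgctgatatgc
Vmn2r81: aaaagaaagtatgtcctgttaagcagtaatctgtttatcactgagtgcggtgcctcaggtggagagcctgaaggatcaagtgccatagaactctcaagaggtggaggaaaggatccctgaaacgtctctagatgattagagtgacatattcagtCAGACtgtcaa
Vmn2r85: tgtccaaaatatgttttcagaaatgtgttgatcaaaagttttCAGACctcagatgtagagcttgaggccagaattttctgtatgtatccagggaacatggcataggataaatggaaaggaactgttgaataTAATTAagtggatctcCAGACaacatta
Vmn2r98: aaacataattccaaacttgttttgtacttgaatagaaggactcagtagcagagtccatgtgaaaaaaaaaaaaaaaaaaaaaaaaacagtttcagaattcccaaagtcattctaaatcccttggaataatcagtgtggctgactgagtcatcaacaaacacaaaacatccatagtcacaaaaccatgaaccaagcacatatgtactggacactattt

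Over the 250 bases before the RefSeq start, CAGAC was found for 45.4% of the 108 receptors with a promoter in the table and for 42.2% of all 32851 promoters. TAATTA was found for 16.7% of the receptors beside 4.84% of all promoters, and CCCNNGGG for 21.3% beside 11.8%. GGCGCC was found for 0 of the 108, beside 9.59% of all promoters. Of the 13 receptors with a promoter that passed the test in AP2e cKO against AP2e WT, 4 held CAGAC, 5 held CCCNNGGG and 0 held TAATTA. A match is a description of the letters and does not show a bound site.

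The 115 receptors differed widely in level within the controls. Levels between genes are compared here as TPM, which is scaled for transcript length, averaged over the 6 WT libraries of both lines. The sum over all receptors was 673 TPM and the median receptor was at 3.18 TPM. Of the 115, 22 reached 10 TPM and 16 were under 1 TPM, and the 10 most abundant held 33.9% of the sum. At the count level, 108 had at least 10 counts in every library and 6 were at 0 in at least 1 library.

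Of the 10 most abundant receptors, 8 came from the chromosome 7 cluster of Vmn2r29 to Vmn2r52. In order of mean level they were Vmn2r49 at 30.97 ± 15.11 TPM (SD, n = 6), Vmn2r36 at 26.10 ± 12.61, Vmn2r88 at 23.94 ± 8.17, Vmn2r48 at 23.06 ± 8.72, Vmn2r30 at 22.18 ± 7.08, Vmn2r29 at 22.01 ± 6.88, Vmn2r42 at 21.92 ± 7.96, Vmn2r81 at 20.81 ± 4.90, Vmn2r44 at 18.82 ± 7.85 and Vmn2r40 at 18.49 ± 5.91. Each neighbouring pair in that order lay closer together than the SD of either, so the order within the 10 is not resolved. Vmn2r88 on chromosome 14 and Vmn2r81 on chromosome 10 were the members of the 10 from elsewhere. Of the 8 from the cluster, Vmn2r48, Vmn2r40, Vmn2r36, Vmn2r49, Vmn2r29 and Vmn2r42 have 1.68% to 33.6% of their windows unique. The levels of these receptors rest largely on how reads shared with other genes were split, so their place among the 10 is uncertain. Vmn2r30 and Vmn2r44 are over 50% unique, as are Vmn2r88 and Vmn2r81.

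Together the receptors made up between 0.16% and 0.48% of a library's counts. Their summed level was 4009.9, 3332 and 4154 CPM in AP2e WT, 1742, 3024 and 3019 in AP2e Het and 2417, 1949 and 2569 in AP2e cKO. All libraries of AP2e Het and AP2e cKO lay below all libraries of AP2e WT, and the Het and cKO libraries overlapped each other. The OMP sums were 3526, 3158 and 4312 in WT, 3753, 3752 and 3824 in Het and 3545, 3687 and 4587 in cKO, and the 3 groups overlapped. In whole organs, fewer V2r neurons and less V2r RNA per neuron cannot be told apart.

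On the log2 scale the sum differed by -0.73 between AP2e cKO and AP2e WT, or 0.602-fold, and by -0.60 between AP2e Het and AP2e WT, or 0.659-fold. Each had a two-sided exact permutation p of 0.1, the smallest that 3 libraries against 3 allow. AP2e cKO against AP2e Het gave -0.13 (exact p = 0.6), so the knockouts were not separated from the controls that carry the same Cre. AP2e Het replicate 1 decided much of the Het values: without it Het against WT was -0.34 and cKO against Het -0.40, each with an exact p of 0.2. In the OMP line cKO against WT gave 0.11 (exact p = 0.5), cKO against Het 0.05 (exact p = 1) and Het against WT 0.06 (exact p = 0.7).

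Taken over both lines, the cKO against WT difference of the sum was -0.31 (exact permutation p = 0.115 over 400 assignments, smallest possible 0.005). The family C sum itself differed by -0.90 between AP2e cKO and WT (exact p = 0.1) and by -0.13 between OMP cKO and WT (exact p = 0.5). The sign of the V2r difference depended on the scale, with 0.20 per family C CPM (exact p = 0.01) and -0.55 per V1r CPM (exact p = 0.01). The difference between the lines was -0.84 (exact permutation p = 0.025), lower in the AP2e line. That difference was -0.067 per family C CPM (exact p = 0.695), -0.59 with the deposited TPM (exact p = 0.215) and -0.85 per V1r CPM (exact p = 0.095). It was -0.72 without OMP cKO replicate 3 (exact p = 0.055) and -0.74 without OMP WT replicate 2 (exact p = 0.05). Within the libraries named by a letter and a number it was -0.82 (exact p = 0.0556, the smallest their assignments allow). For cKO against Het, the difference between the lines was -0.18 (exact permutation p = 0.52). With 1 library left out in turn it ran from -0.45 to -0.05 (exact p 0.12 to 0.945). For Het against WT it was -0.66 (exact permutation p = 0.065). With 1 library left out in turn that ran from -0.79 to -0.39 (exact p 0.005 to 0.15), with -0.78 without OMP WT replicate 3 (exact p = 0.005). Within the libraries named by a letter and a number, the AP2e cKO against WT difference was -0.71, and between the single libraries named after the line it was -0.78. In that order, AP2e Het against WT was -0.67 and -0.46, and OMP cKO against WT 0.12 and 0.089. AP2e cKO against Het was -0.037 and -0.32. The sign changed for OMP cKO against Het (-0.054 and 0.26), OMP Het against WT (0.17 and -0.17) and the WT groups (0.13 and -0.054).

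The scale of the comparison mattered for the sum. Per V1r CPM, the V2r sum was at 1.83, 1.79 and 1.997 in AP2e WT, 0.975, 1.25 and 1.43 in AP2e Het and 0.885, 0.940 and 1.04 in AP2e cKO, against 1.55 to 1.95 over all OMP libraries. V1rs as a sum were 0.24 higher in AP2e cKO than in WT on the log2 scale (exact p = 0.3). Family C as a sum differed from WT by -0.90 in AP2e cKO and -0.62 in AP2e Het (exact p = 0.1 for each, the smallest possible). Per family C CPM, in contrast, the ratio was 5.63 to 6.31 in AP2e WT, 5.32 to 7.11 in AP2e Het and 6.19 to 6.96 in AP2e cKO, and the 3 groups overlapped. In the OMP line it was 5.70 to 6.43 in WT, 5.94 to 6.98 in Het and 6.71 to 7.56 in cKO, so there the cKO libraries lay wholly above WT (0.24 on the log2 scale, exact p = 0.1, the smallest possible) and overlapped Het. With the deposited TPM, the AP2e cKO against WT difference was -0.44 (exact p = 0.2) and the groups overlapped.

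**Figure D1:**
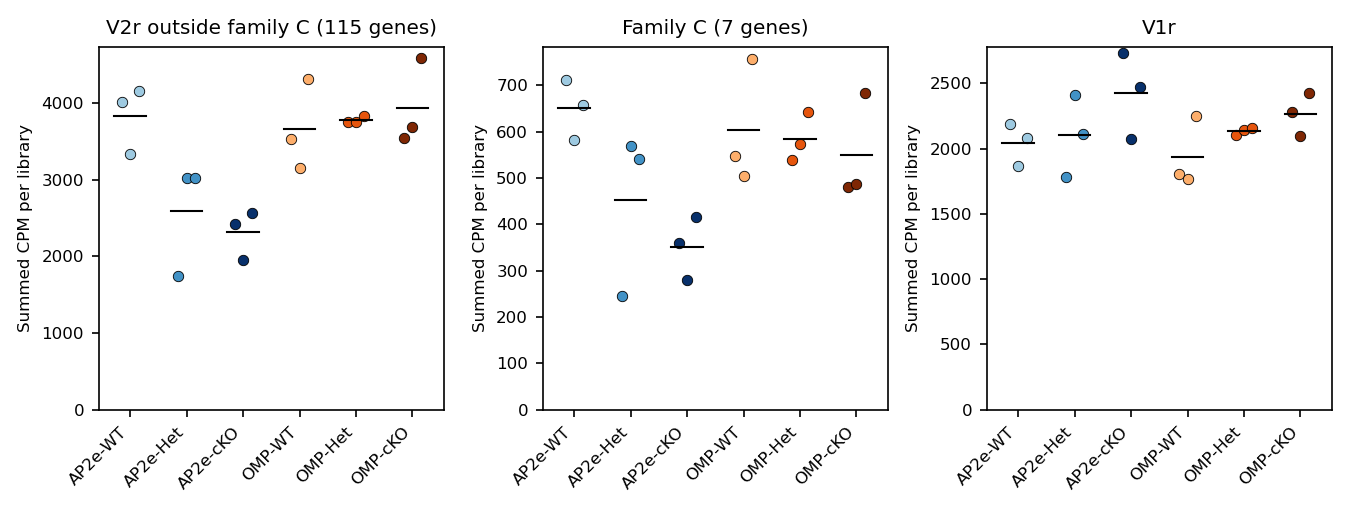
Summed level in CPM per library of V2rs outside family C, of family C V2rs and of V1rs, for the 6 groups of 3 libraries. Points are libraries and lines group means, and V2r sums of 1742 to 3024 CPM in AP2e Het and 1949 to 2569 in AP2e cKO lie below the 3332 to 4154 of AP2e WT.

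Single receptors were then tested with edgeR on all 19465 genes that passed the count filter, with a call at an adjusted p under 0.05. Of the 115 receptors, 114 passed the filter. The one that did not, Vmn2r47, had no window of its own. In AP2e cKO against AP2e WT, 14 receptors were called lower and 0 higher, beside 0.128% of all genes called lower (25 genes) and 0.0205% higher. At an unadjusted p under 0.05, 70 were lower and 0 higher, beside 4.4% and 3.44% of all genes. Of the 14 calls, 4 remained without cKO replicate 2 (7 genes called in all, against 29 with every library), 5 without WT replicate 1 or WT replicate 3 (10 and 12 genes), and 7 without cKO replicate 3 (15 genes). With the AP2e libraries fitted alone 1 of the 14 remained, among 5 genes called in all, and with WT and Het as 1 control group 1 remained, among 9. The fold change was below 0 for 100 of 114, with a median of -0.67 on the log2 scale against 0.003 over all genes. In 65 receptors all 3 cKO libraries lay below all 3 WT libraries (6.92% of all genes), and in 0 they lay above (6.6% of all genes).

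The called receptors held a minor part of the difference in the sum. The mean sums of AP2e cKO and AP2e WT differed by -1520.3 CPM, and 18.8% of that lay in the 14 called genes. The 10 receptors with the most counts in a library held 27.8% to 29.0% of the V2r CPM in AP2e WT, 29.1% to 31.8% in AP2e Het and 29.4% to 30.4% in AP2e cKO, so the Het and cKO libraries lay above all WT libraries of the line, and 26.7% to 30.6% over the OMP libraries. The effective number of receptors, which is the number of equally abundant genes that would give the same evenness, was 75.1 to 80.8 over all 18 libraries. Besides the 4 receptors described next, the called genes were Vmn2r18, Vmn2r23, Vmn2r34, Vmn2r76, Vmn2r79, Vmn2r100, Vmn2r102, Vmn2r105, Vmn2r111 and Vmn2r117, with log2 fold changes from -1.44 to -1.08; they are listed after their values were seen.

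Vmn2r78, on chromosome 7 (chr7:86915094-86955312, plus strand), had the largest called change. Its level was 27.2, 18.1 and 20.6 CPM in AP2e WT, 10.7, 16.6 and 14.2 in AP2e Het and 6.11, 4.20 and 5.85 in AP2e cKO. The 3 groups formed 3 steps without overlap, with the knockouts lowest. The log2 fold change of cKO against WT was -2.03 (SE 0.19, edgeR adjusted p = 0.00027). Against Het it was -1.37 (SE 0.18, edgeR adjusted p = 0.0045), and Vmn2r78 was 1 of 2 receptors called in that comparison. Across the OMP groups it was at 20.4, 22.5 and 25.03 CPM in WT, 21.9, 19.7 and 18.1 in Het and 18.5, 17.8 and 16.8 in cKO, so its cKO libraries lay wholly below OMP WT as well and overlapped OMP Het. Its windows are 94.4% its own, and the share of its reads that match another gene was not measured.

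Vmn2r116, on chromosome 17 (chr17:23384604-23404422, plus strand), is the receptor known as V2Rp5, which binds the male pheromone ESP1. It was at 27.6, 25.5 and 27.3 CPM in AP2e WT, 11.1, 16.99 and 12.97 in AP2e Het and 9.88, 7.38 and 11.8 in AP2e cKO. Both Cre-carrying groups lay below WT, and they overlapped each other. The log2 fold change was -1.47 for cKO against WT (SE 0.18, edgeR adjusted p = 0.0028) and -0.97 for Het against WT (edgeR adjusted p = 0.0499). All OMP libraries lay between 17.97 and 25.8 CPM. Both Vmn2r78 calls and the cKO call of Vmn2r116 were kept with each library left out in turn. With the AP2e libraries fitted alone, Vmn2r116 was at an edgeR adjusted p of 0.070 against WT and Vmn2r78 at 0.082 against Het. With WT and Het as 1 control group the difference of Vmn2r116 was -1.06 (edgeR adjusted p = 0.207). Vmn2r116 has 95.3% of its windows to itself.

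Vmn2r40 and Vmn2r39, both in the chromosome 7 cluster, completed the 4 largest called changes. Vmn2r40 was at 79.1, 53.7 and 93.3 CPM in AP2e WT, 21.7, 53.6 and 40.8 in AP2e Het and 23.0, 24.2 and 28.8 in AP2e cKO, a log2 fold change of cKO against WT of -1.57 (SE 0.25, edgeR adjusted p = 0.0175). Vmn2r39 was at 29.5, 24.4 and 45.1 CPM in AP2e WT and 8.42, 11.1 and 15.7 in AP2e cKO, with a log2 fold change of -1.49 (SE 0.26, edgeR adjusted p = 0.0274). In both, the cKO libraries lay wholly below WT. With 7.87% and 25.5% of their windows unique, these counts rest largely on how salmon split shared reads, and both calls were lost without WT replicate 1 or 3 and without cKO replicate 1 or 2, with adjusted p up to 0.21.

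AP2e Het against AP2e WT compared the controls of the line with each other, since the Het mice carry the Cre without the Smad4 knockout. The comparison shares its WT libraries with the one above, so the values stand side by side and are not independent. Here 9 receptors were called lower and 0 higher, beside 0.128% of all genes called lower and 0.0411% higher. At an unadjusted p under 0.05, 62 were lower (3.08% of all genes) and 3 higher (2.66%). The fold change was below 0 for 105 of 114, with a median of -0.65, and in 55 all Het libraries lay below all WT libraries (4.9% of all genes) while in 2 they lay above (4.98%). Het replicate 1 had the lowest V2r sum of all libraries and shaped this list. Without it 0 receptors were called lower and 1 was called higher, so 0 of the 9 remained, with 14 genes called in all against 33 with every library. Fitting the AP2e libraries alone gave 0 called receptors, among 9 genes called in all. Without WT replicate 1 or WT replicate 3, 0 receptors were called (10 and 9 genes in all), without Het replicate 2 or WT replicate 2, 3 were (21 and 20 genes), and without Het replicate 3, 10 were (35 genes).

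The 4 largest called changes of the Het comparison were Vmn2r85, Vmn2r98, Vmn2r81 and Vmn2r83. Vmn2r85 (chr10:130414064-130429703, minus strand) was at 4.69, 5.73 and 6.11 CPM in AP2e WT and 1.05, 1.80 and 1.98 in AP2e Het, a log2 fold change of -1.78 (SE 0.30, edgeR adjusted p = 0.0258). Its AP2e cKO libraries were at 3.48, 3.398 and 4.93 CPM, above all Het libraries. Vmn2r98 (chr17:19053460-19082411, plus strand) was at 11.2, 9.31 and 11.8 CPM in AP2e WT and 3.39, 4.61 and 4.75 in AP2e Het, a log2 fold change of -1.34 (SE 0.23, edgeR adjusted p = 0.0258). Its AP2e cKO libraries were at 11.6, 6.80 and 10.34 CPM, again above all Het libraries, and in both receptors the cKO and WT libraries overlapped. The cKO against Het difference was 1.29 for Vmn2r85 (edgeR adjusted p = 0.138) and 1.17 for Vmn2r98 (edgeR adjusted p = 0.0614), so neither difference passed the test. The calls of all 4 receptors were lost without WT replicate 1, WT replicate 3 or Het replicate 1, and their adjusted p with the replicate number as a block ran from 0.051 to 0.11.

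Vmn2r81 and Vmn2r83 are neighbours on chromosome 10. Vmn2r81 (chr10:79247692-79294535, plus strand) was at 94.8, 68.0 and 88.4 CPM in AP2e WT, 22.1, 46.4 and 37.3 in AP2e Het and 56.5, 45.1 and 70.8 in AP2e cKO, a log2 fold change of Het against WT of -1.25 (SE 0.22, edgeR adjusted p = 0.0356). Vmn2r83 (chr10:79468731-79493585, plus strand) was at 29.2, 23.7 and 26.8 CPM in AP2e WT, 7.21, 12.0 and 15.5 in AP2e Het and 11.7, 14.0 and 14.8 in AP2e cKO, a log2 fold change of -1.20 (SE 0.21, edgeR adjusted p = 0.0363). For Vmn2r81 the Het and cKO libraries overlapped at the edge, and for Vmn2r83 they overlapped throughout. Over the OMP groups Vmn2r81 stayed between 67.6 and 97.9 CPM.

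AP2e cKO against AP2e Het, the comparison in which both groups carry the Cre, called 2 receptors lower and 0 higher, beside 0.0514% of all genes called lower and 0.0873% higher. At an unadjusted p under 0.05, 16 were lower and 12 higher, beside 5.36% and 4.72% of all genes. With the AP2e libraries fitted alone 1 of the 2 calls remained, among 19 genes called in all, and that of Vmn2r78 was lost (edgeR adjusted p = 0.0821). The median log2 fold change was -0.08. In 3 receptors all cKO libraries lay below all Het libraries (7.53% of all genes) and in 8 they lay above (7.21%). Vmn2r78 is described above.

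Vmn2r122, on an unplaced scaffold, was the other call. It was at 16.0, 21.8 and 23.6 CPM in AP2e WT, 41.1, 92.1 and 70.6 in AP2e Het and 15.8, 17.4 and 16.7 in AP2e cKO. The log2 fold change of cKO against Het was -2.03 (SE 0.34, edgeR adjusted p = 0.0282). The call was lost without any of the cKO libraries and without Het replicate 2 or 3 (edgeR adjusted p 0.072 to 0.176). The OMP levels were 99.9, 65.5 and 96.4 CPM in WT, 77.2, 87.2 and 155 in Het and 86.9, 81.4 and 169.9 in cKO. The AP2e WT and AP2e cKO libraries thus lay together, below every library of the other 4 groups. Between the WT groups the log2 difference was -2.09 (SE 0.34, edgeR adjusted p = 0.0816), the smallest p of any receptor there, and it did not pass the test. No sequence was at hand for its transcript, so its windows were not checked.

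Vmn2r125, annotated as a pseudogene on chromosome 4, is given beside it, chosen after its values were seen. It was at 13.6, 13.8 and 15.2 CPM in AP2e WT, 13.4, 27.8 and 26.3 in AP2e Het, 12.6, 11.5 and 13.9 in AP2e cKO and between 20.7 and 44.4 in all OMP libraries. As for Vmn2r122, the AP2e WT and cKO libraries were the low ones, here with AP2e Het replicate 1 among them.

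**Figure D2:**
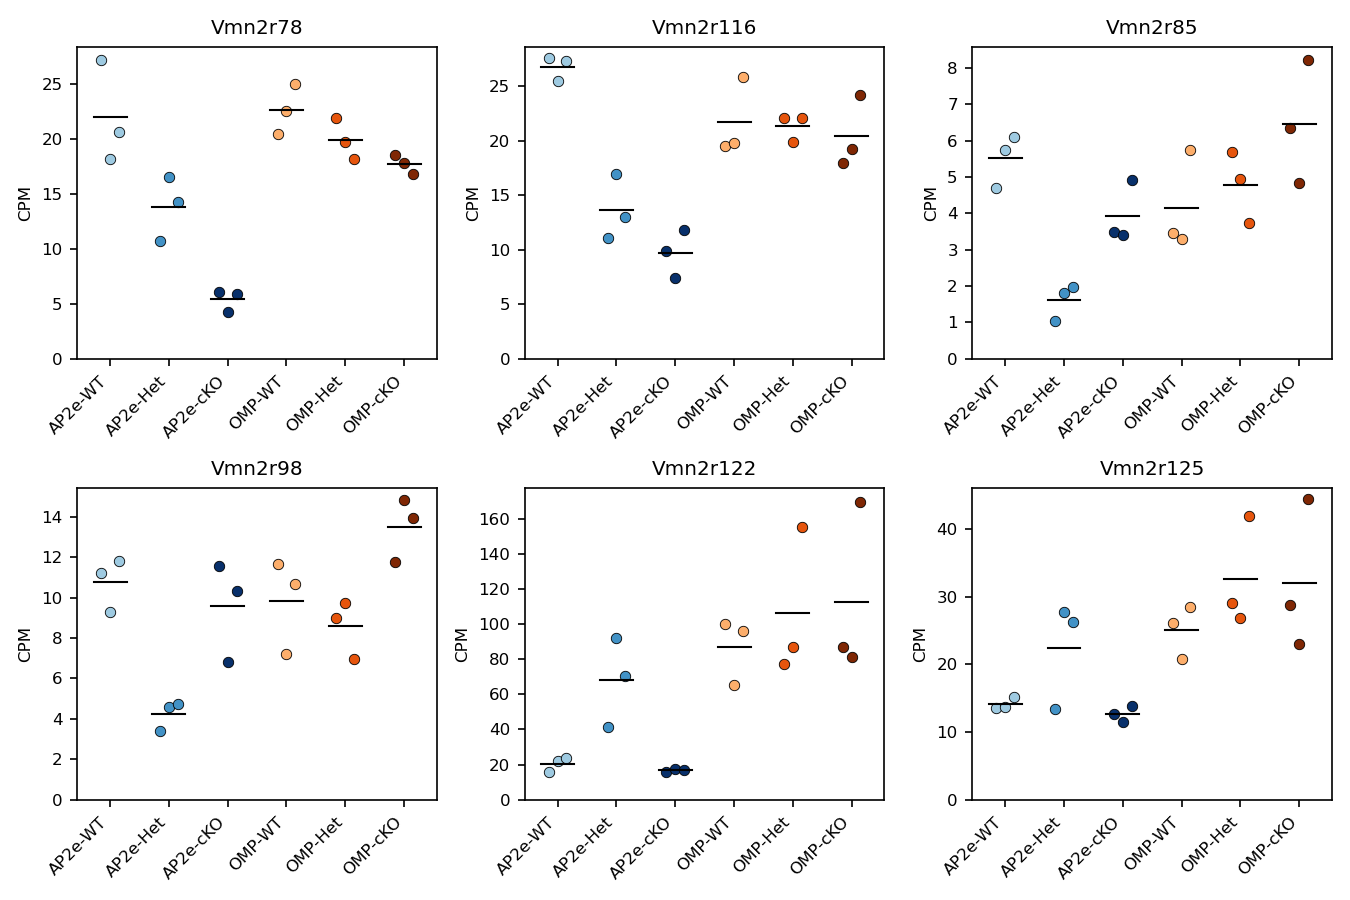
Level in CPM of 6 receptors in each of the 3 libraries of the 6 groups (points), with group means as lines. Vmn2r78 and Vmn2r116 are low in AP2e cKO, Vmn2r85 and Vmn2r98 are lowest in AP2e Het, and Vmn2r122 and Vmn2r125 are low in AP2e WT and AP2e cKO.

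In the OMP line no receptor was called in any comparison. In cKO against WT, 2 receptors were lower (2.83% of all genes) and 4 higher (2.3%) at an unadjusted p under 0.05, and 0 were called (0.0205% of all genes called). The median log2 fold change was 0.10, with 5 receptors wholly lower (4.24%) and 6 wholly higher (4.47%). In cKO against Het, 0 were lower (2.32%) and 10 higher (2.44%) at an unadjusted p under 0.05, and 0 were called (0.0822%). The median was 0.14, and 8 were wholly lower (5.18%) and 18 wholly higher (5.34%). In Het against WT, 4 were lower (3.72%) and 4 higher (3.04%) at an unadjusted p under 0.05, and 0 were called (0.0462%). The median was -0.03, and 7 were wholly lower (5%) and 4 wholly higher (6.38%). DESeq2 called 1 receptor among 56 genes in cKO against WT, 2 among 112 in Het against WT and 0 among 101 in cKO against Het.

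The receptors with the smallest p in the OMP line are given as values. Vmn2r74 was at 33.4, 40.4 and 50.5 CPM in OMP WT, 66.9, 66.5 and 61.6 in Het and 77.0, 62.4 and 74.9 in cKO, with a log2 difference of cKO and WT of 0.79 (SE 0.19, edgeR adjusted p = 0.528). Both Cre-carrying groups lay above WT and overlapped each other. In the AP2e line it was at 29.4, 27.2 and 30.9 CPM in WT, 12.6, 21.9 and 20.2 in Het and 30.0, 19.5 and 24.3 in cKO, so the Het group lay below WT there. Vmn2r69 was at 49.0, 43.1 and 57.2 CPM in OMP WT, 26.1, 25.9 and 27.2 in Het and 32.4, 35.2 and 44.6 in cKO, a log2 difference of Het and WT of -0.92 (edgeR adjusted p = 0.279). Vmn2r68 was at 20.7, 10.9 and 14.5 CPM in OMP WT, 6.51, 7.01 and 6.45 in Het and 12.1, 13.9 and 13.5 in cKO, with -1.21 for Het against WT (edgeR adjusted p = 0.377) and 0.98 for cKO against Het (edgeR adjusted p = 0.728). For both, the Het libraries were the lowest of their line. Vmn2r22 had 0.55 for cKO against WT (edgeR adjusted p = 0.808), and Vmn2r34 had 0.48 for cKO against Het (edgeR adjusted p = 0.731).

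Between the WT groups of the lines, 0 receptors were called (0.00514% of all genes called in either direction), 3 were lower (3.66%) and 9 higher (2.53%) in AP2e WT at an unadjusted p under 0.05, and the median log2 difference was 0.11. In 8 receptors AP2e WT lay wholly below OMP WT (4.43%) and in 11 wholly above (4.63%), and DESeq2 called 1, among 103 genes. After Vmn2r122, the smallest p belonged to Vmn2r54, at 20.3, 16.9 and 17.1 CPM in AP2e WT and 10.8, 7.83 and 11.7 in OMP WT (edgeR adjusted p = 0.607).

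The difference between the lines was also tested gene by gene as an interaction. For cKO against WT, 60 receptors had a lower effect in the AP2e line at an unadjusted p under 0.05 and 0 a higher one, beside 2.18% and 3.15% of all genes, and the median difference was -0.83 against -0.008 over all genes. No receptor and no gene was called. The smallest adjusted p was that of Vmn2r78, with a difference of -1.68 (SE 0.25, edgeR adjusted p = 0.159). For cKO against Het, 10 were lower and 1 higher (2.61% and 2.44% of all genes), with a median of -0.17 and 0 receptors called, beside 0.0308% of all genes called in either direction.

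**Figure D3:**
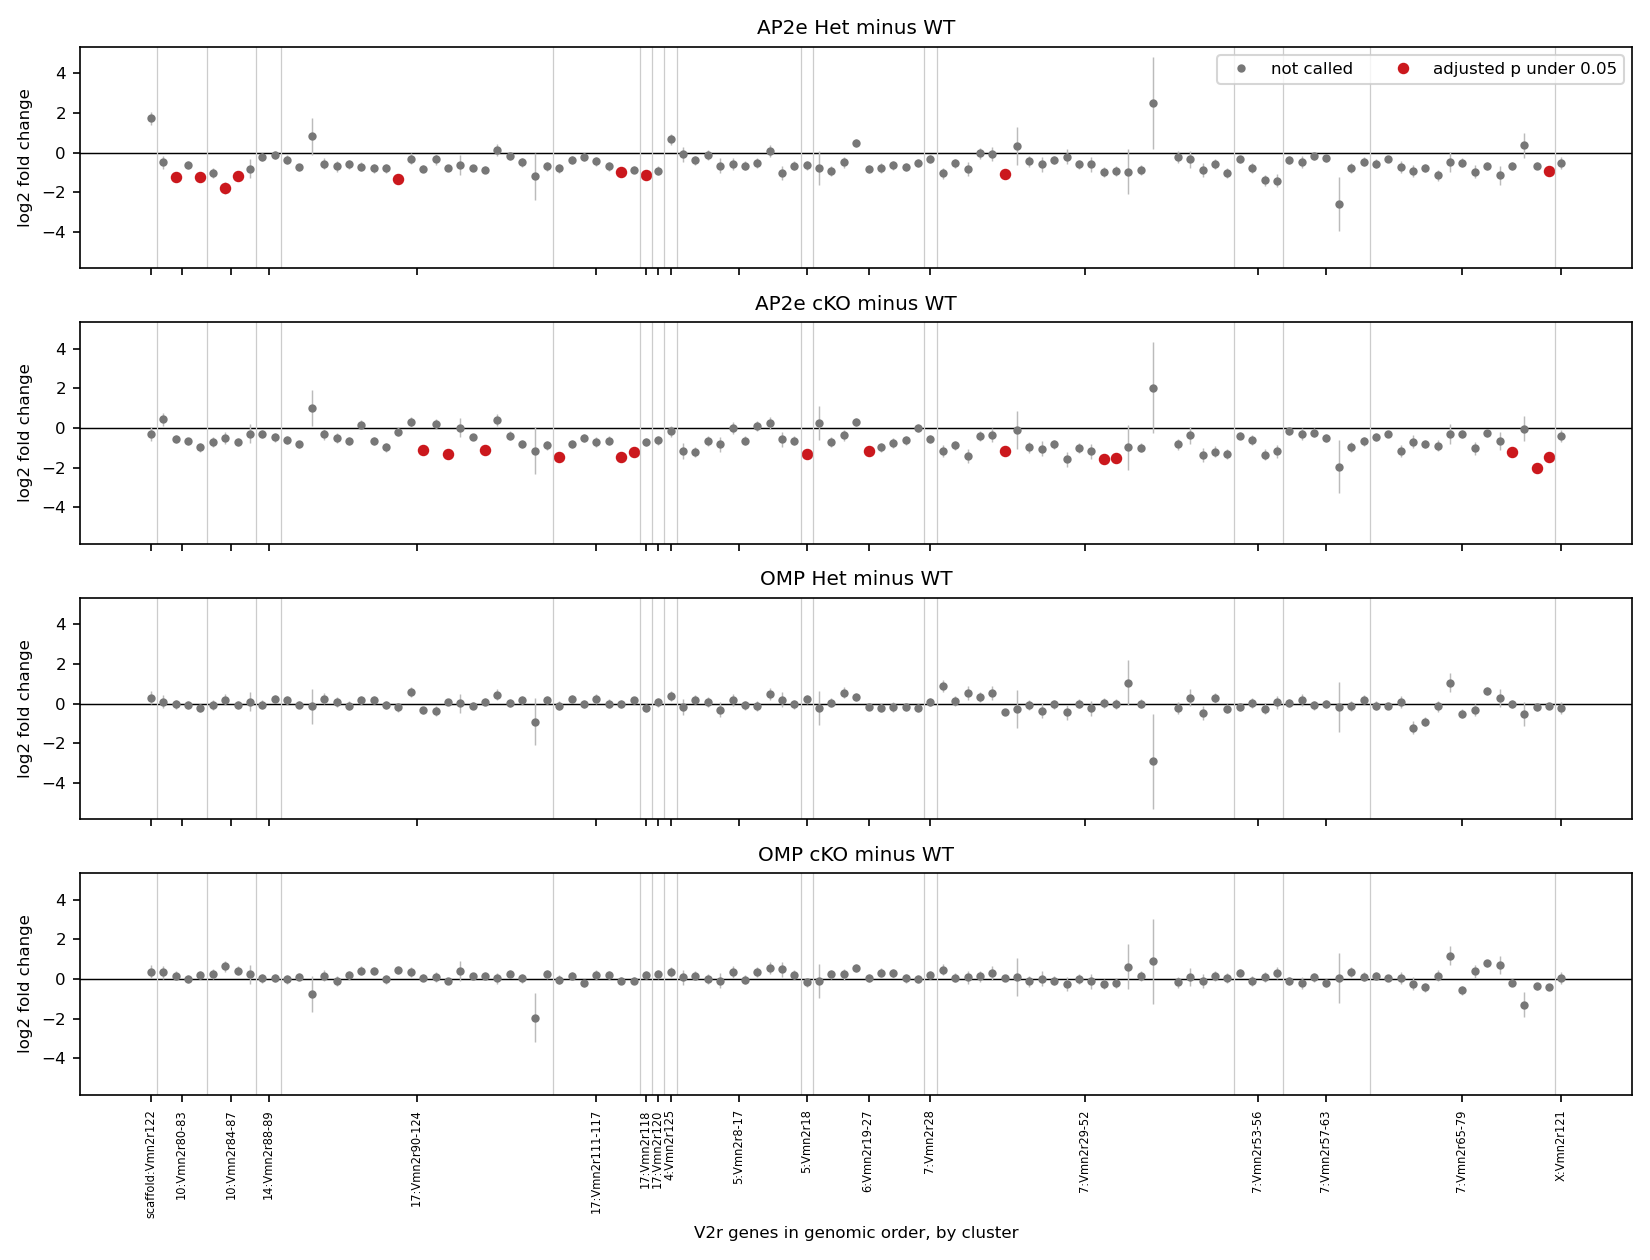
Log2 fold change of each tested V2r gene, in genomic order by cluster, for Het and cKO against WT in each line (4 panels). Bars are SE, and red points passed edgeR at an adjusted p under 0.05, with 9 in AP2e Het, 14 in AP2e cKO and 0 in the OMP line.

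V2r genes sit in clusters of near relatives. With a gap of 1 Mb, the 115 fell into 18 clusters, of which 7 held 1 gene. In AP2e cKO against WT the summed CPM was lower in 18 of 18 clusters, from -1.31 (Vmn2r18) to -0.17 (Vmn2r125) on the log2 scale, and in 14 of them the cKO libraries lay wholly below WT. In AP2e Het against WT it was lower in 16 of 18, and 11 lay wholly below WT and 1, Vmn2r122, wholly above. For single clusters the exact permutation test could not go below p = 0.1, and the smallest adjusted p over the 18 clusters was 0.13 and 0.15 in these comparisons.

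The Vmn2r29 to Vmn2r52 cluster (chr7:7231327-10176573) held 27.4% to 34.0% of the V2r CPM by group mean, more than any other cluster. Its sum was 1291, 978 and 1396 CPM in AP2e WT, 517, 999 and 938 in AP2e Het and 623, 563 and 709 in AP2e cKO, a log2 difference of -0.94 for cKO against WT. The cKO libraries lay wholly below WT, and the Het libraries overlapped both. Of its 23 tested genes, 22 had a fold change below 0 in cKO against WT. At an unadjusted p under 0.05 there were 17 (4.4% of all genes lower), with 3 called (0.128% of all genes called lower). Against Het, 23 of 23 were below 0, 4 at an unadjusted p under 0.05 (5.36% of all genes lower) and 0 called (0.0514%). With 18 of its 24 genes under 50% unique windows, these genes share reads and are not separate observations.

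The Vmn2r111 to Vmn2r117 cluster (chr17:22544504-23479699) was at 217, 178 and 214 CPM in AP2e WT, 96.7, 153 and 153 in AP2e Het and 122, 91.6 and 122 in AP2e cKO. Here 7 of 7 genes were lower in cKO than in WT at an unadjusted p under 0.05 (4.4% of all genes), with 3 called (0.128%). The Vmn2r65 to Vmn2r79 cluster (chr7:84935565-87044941), which holds Vmn2r78, was at 430.4, 353 and 460.1 CPM in AP2e WT, 167, 298 and 291 in AP2e Het and 249, 200.4 and 259.7 in AP2e cKO, with 15 of 15 genes below 0 in cKO against WT. In both clusters the Het and cKO libraries lay below WT and overlapped each other.

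In AP2e cKO against Het the sum was above Het in 8 of 18 clusters, and the chromosome 10 clusters had the largest such differences. Vmn2r80 to Vmn2r83 (chr10:79148769-79493585) summed to 168, 126 and 163 CPM in AP2e WT, 46.1, 93.6 and 82.3 in AP2e Het and 98.8, 84.1 and 118 in AP2e cKO. Vmn2r84 to Vmn2r87 (chr10:130377925-130497396) summed to 88.0, 65.6 and 85.9 CPM in AP2e WT, 23.7, 38.3 and 46.5 in AP2e Het and 53.2, 40.6 and 55.1 in AP2e cKO. Against WT the Het groups were at -1.09 and -1.18 on the log2 scale, and the cKO groups at -0.60 and -0.69. The cKO libraries were 0.49 and 0.50 above Het, but overlapped it (exact p = 0.2 for each).

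In the OMP line, 1 of 18 clusters was lower in cKO than in WT, and the differences ran from -0.17 to 0.35 on the log2 scale with no cluster wholly on one side. Against Het, 5 of 18 were lower, from -0.38 to 0.41. There the cKO libraries lay wholly below Het for 1 cluster, Vmn2r18, and wholly above for 4, those of Vmn2r53 to Vmn2r56, Vmn2r65 to Vmn2r79, Vmn2r80 to Vmn2r83 and Vmn2r118. The smallest adjusted p over the clusters was 0.97 and 0.36.

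Some receptors varied more between libraries of the same group than between groups. The median within-group SD of log2(CPM + 1) was 0.289 over the receptors and 0.186 over all tested genes. The 8 with the largest SD were Vmn2r38 (1.57), Vmn2r77 (0.73), Vmn2r46 (0.67), Vmn2r49 (0.63), Vmn2r35 (0.60), Vmn2r8 (0.54), Vmn2r75 (0.53) and Vmn2r45 (0.50). Vmn2r38, Vmn2r46, Vmn2r49, Vmn2r35 and Vmn2r45 belong to the chromosome 7 cluster with the shared sequence, whereas Vmn2r77 and Vmn2r8 have 97.3% and 93.1% of their windows to themselves.

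Vmn2r38 (chr7:9073775-9097881, minus strand) took either a low or a high value. It was at 103, 73.8 and 10.11 CPM in AP2e WT, 4.67, 8.63 and 82.7 in AP2e Het and 43.2, 6.63 and 46.1 in AP2e cKO. Among the OMP libraries it was at 8.81, 10.7 and 100 CPM in WT, 81.8, 81.6 and 83.6 in Het and 69.8, 16.2 and 96.7 in cKO. No library lay between 16.2 and 43.2 CPM, and both kinds of library occurred in 5 of the 6 groups. The windows of Vmn2r38 are 36.9% unique.

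Other receptors, most of them of the same cluster, varied with Vmn2r38 from library to library. Over the 18 libraries, deviations from the group mean correlated at 0.889 with those of Vmn2r29, 0.801 with Vmn2r51, 0.790 with Vmn2r49 and 0.760 with Vmn2r30, all of the cluster, at 0.738 with Vmn2r88 on chromosome 14, which has 92.7% of its windows to itself, and at -0.755 with Vmn2r43 and -0.751 with Vmn2r48. These points share libraries, and the genes of the cluster share sequence, so the correlations are a description. The sum over the cluster had a within-group SD of 0.283, beside a median of 0.364 and a maximum of 1.57 over its genes. In the Vmn2r19 to Vmn2r27 cluster the sum had an SD of 0.275, beside a median of 0.257 over its genes.

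Vmn2r77 (chr7:86795027-86815140, plus strand) was at 9.67, 10.33 and 3.66 CPM in AP2e WT, 10.8, 10.405 and 9.25 in Het and 14.6, 6.31 and 2.33 in cKO. In the OMP line it was at 10.8, 16.4 and 19.98 CPM in WT, 9.70, 10.55 and 12.6 in Het and 13.6, 3.08 and 2.62 in cKO. Both cKO groups held high and low libraries. Vmn2r8 (chr5:108791843-108808850, minus strand) was at 35.7, 47.1 and 35.6 CPM in AP2e WT, 31.9, 28.5 and 50.9 in Het and 5.70, 18.03 and 29.6 in cKO, so the cKO libraries lay wholly below WT while the highest of them was several times the lowest. Vmn2r46 was at 0 in 8 libraries and at most at 2.21 CPM, and with 3.27% of its windows unique its count is uncertain.

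**Figure D4:**
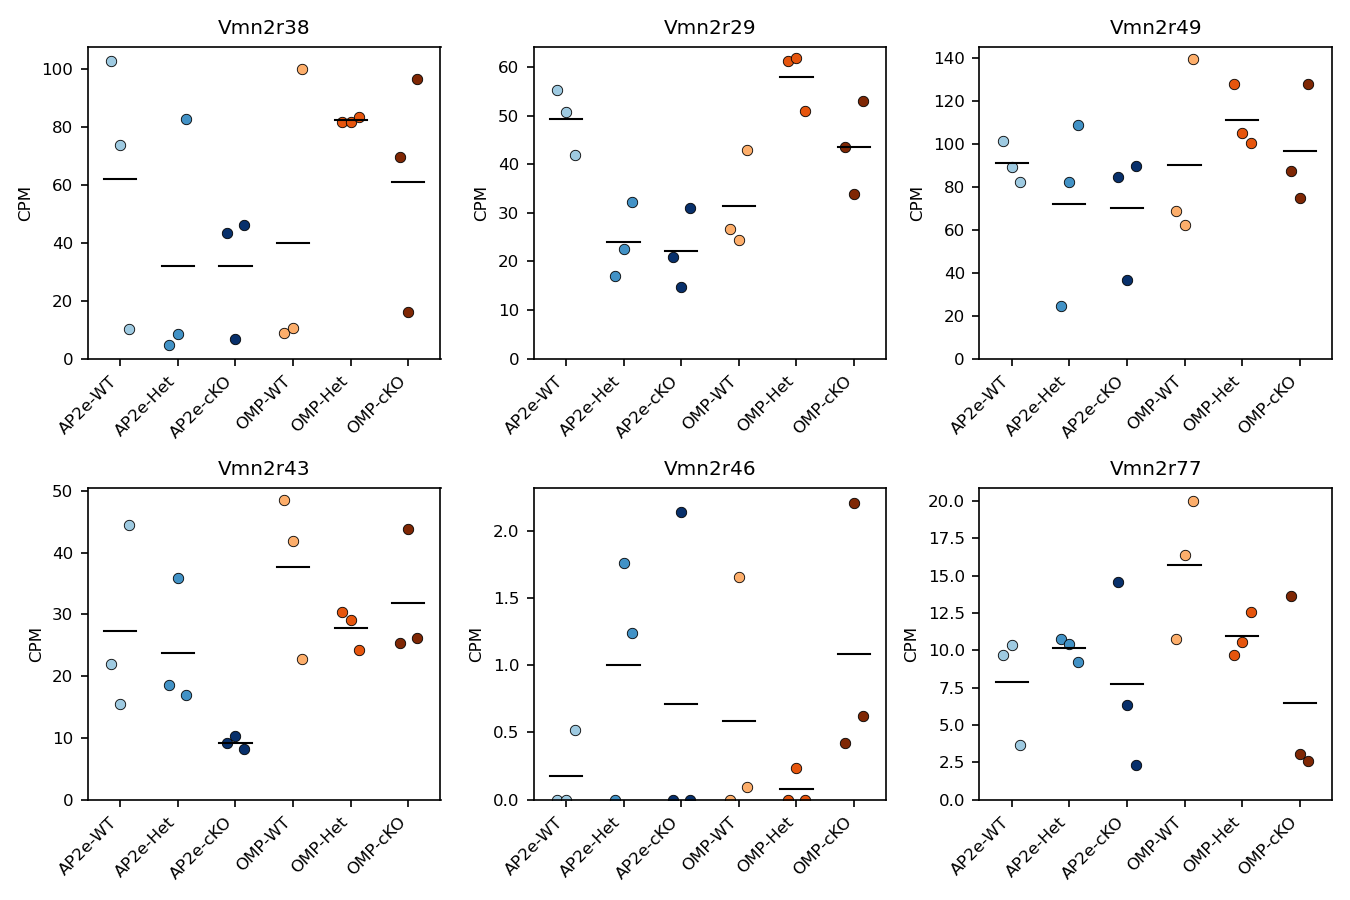
Level in CPM of Vmn2r38, Vmn2r29, Vmn2r49, Vmn2r43, Vmn2r46 and Vmn2r77 in each library of the 6 groups (points), with group means as lines. Vmn2r38 is either at 16.2 CPM or below or at 43.2 CPM or above, and both kinds of library occur within groups.

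**Figure D5:**
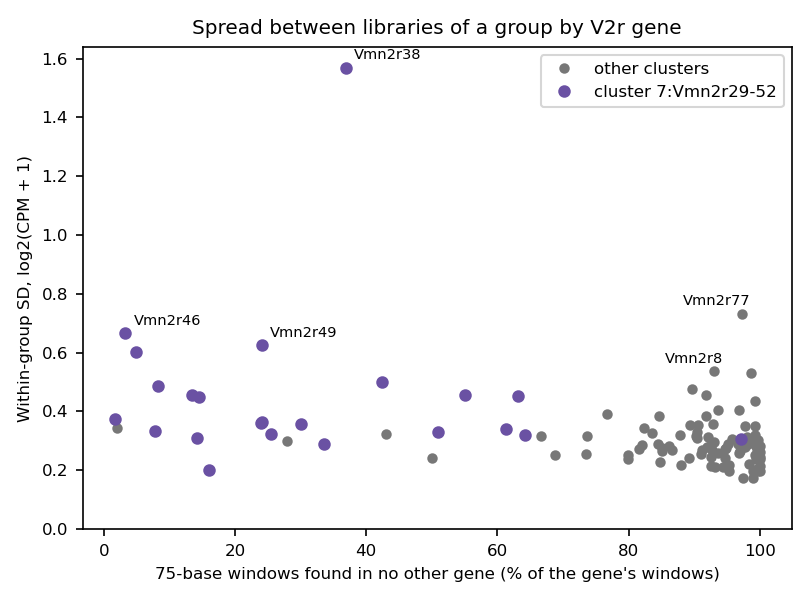
Within-group SD of log2(CPM + 1) of each receptor against the share of its 75-base windows found in no other gene, in percent. Receptors of the Vmn2r29 to Vmn2r52 cluster lie mostly under 50% unique, with Vmn2r38 at an SD of 1.57, and Vmn2r77 and Vmn2r8 spread widely at over 90% unique.

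The other genes of the V2r pathway were read in the same fit. Of the 7 family C coreceptors, 1 was called lower in AP2e cKO against WT and 5 were lower at an unadjusted p under 0.05, beside 0.128% and 4.4% of all genes, with a median log2 fold change of -0.95. The called gene was Vmn2r5, at 19.1, 14.6 and 9.40 CPM in AP2e WT, 0.570, 5.69 and 3.79 in Het and 0.340, 1.29 and 0.543 in cKO, a log2 fold change of -4.25 (SE 0.68, edgeR adjusted p = 0.0167). Of the 10 H2-Mv genes, non-classical MHC class I genes expressed with V2rs in a subset of basal VSNs, H2-M9 was called lower in cKO (-2.66, SE 0.40, edgeR adjusted p = 0.0125) and in Het (-2.36, SE 0.39, edgeR adjusted p = 0.0258), beside 0.128% of all genes called lower in each comparison, and the list medians were -0.83 and -0.85. B2m, the partner of MHC class I chains, was not called.

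None of the 4 G protein and channel genes (Gnao1, Gnb1, Gng8 and Trpc2) was called in the AP2e line, with list medians of 0.08 for cKO and -0.26 for Het against WT. Calr4, the calreticulin that serves as a V2r chaperone in VSNs, was at 259, 238 and 243 CPM in AP2e WT, 103, 173 and 170.1 in Het and 163, 141 and 194 in cKO, below WT in both groups and not called. Of the 5 regulators (Tfap2e, Bcl11b, Lhx2, Ldb1 and Atf5), 1 was called, lower in Het against WT (0.128% of all genes). Tfap2e, whose gene carries the Cre, was at 15.5, 14.0 and 16.6 CPM in AP2e WT, 5.44, 8.19 and 8.88 in Het and 11.2, 10.0 and 12.5 in cKO, with a log2 fold change of Het against WT of -1.03 (edgeR adjusted p = 0.0138).

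Markers of the VSN classes are given beside the V2rs. The 7 basal VSN markers summed to between 880 and 982 CPM in AP2e WT, 460 and 745 in Het and 653 and 823 in cKO, and the 5 apical markers to between 803 and 960, 867 and 917, and 1047 and 1083. In the OMP line the apical markers summed to between 860 and 882 CPM in WT, 903 and 957 in Het and 993 and 1045 in cKO, 3 ranges without overlap. The V1r gene Vmn1r1 was called higher in AP2e cKO against WT (1.51, edgeR adjusted p = 0.0096) and against Het (1.61, edgeR adjusted p = 0.0046). The mature VSN markers overlapped between the 3 AP2e groups, and immature VSN markers summed to between 151 and 169 CPM in WT, 144 and 186 in Het and 172 and 232 in cKO. Their part in the V2r differences was not tested.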

How the data were processed

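PolyA+ RNA of whole VNOs was made into stranded libraries and sequenced as single reads of 75 cycles. The authors quantified reads with salmon 0.14.0, and the deposited estimated count of each transcript is not normalized, whereas the deposited TPM is scaled per library. The methods name coding sequences as the target, while the transcript lengths in the files equal those of full GENCODE vM21 transcripts (GRCm38). The authors' own DESeq2 1.22.2 tables were not used here.

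The estimates of a gene's transcripts were summed and rounded to whole numbers. For 176 of 116248 transcripts the annotation gave no gene, and they were dropped, at a cost of no more than 0.032% of any library. A library titled as a heterozygote but given a cKO genotype entered no comparison. Genes were tested with the quasi-likelihood functions of edgeR 4.0.16 in R 4.3.3 over the 18 other libraries in 6 groups, with TMM normalization, filterByExpr and Benjamini-Hochberg adjustment over 19465 genes. Sums of CPM were tested by two-sided exact permutation over libraries. DESeq2 1.42.0 and the alternatives in the closing section were also run. Tables were made in Python 3.11.15 (numpy 2.4.6, pandas 2.3.3) and plots in matplotlib 3.10.9. The edgeR test of cKO against WT in each line was tried on simulated counts.

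Receptors were named by rule: the 10 with the highest TPM over the WT libraries, up to 4 called per comparison by fold change, with a mean of at least 0.5 CPM (or the 2 with the smallest p where fewer than 2 were called), and the 8 with the largest within-group SD. The members, lists and rules were chosen with earlier results of these data known. Gene positions are those of GENCODE vM21. Library names come in letter-number and line-name series, and each group has 1 library of the second kind. The main fit did not pair samples by replicate number. Deviations of same-numbered libraries correlated at a mean of -0.05 in the AP2e line (lowest -0.18), against 0.025 for other numbers. In the OMP line the mean was 0.11 (-0.03 to 0.29), against -0.056 (-0.27 to 0.12), so same-numbered OMP libraries were more alike on average. Replicate 3 was the line-name library of each OMP group.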

Additional observations from a re-analysis of the deposited data

Results flagged for a closer look

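The summed V2r level differed between the lines in its cKO against WT effect. It was -0.73 on the log2 scale in the AP2e line and 0.11 in the OMP line, a difference of -0.84 (exact permutation p = 0.025 over 400 assignments). It was -0.067 per family C CPM (exact permutation p = 0.695) and -0.59 with the deposited TPM (exact permutation p = 0.215), and with 1 library left out in turn its exact p reached 0.055. The family C sum itself differed from WT by -0.90 in AP2e cKO and by -0.13 in OMP cKO. All 3 AP2e cKO libraries lay below all 3 AP2e WT libraries, and the OMP cKO and WT libraries overlapped on the CPM scale. For cKO against Het the difference between the lines was -0.18 (exact permutation p = 0.52), and for Het against WT -0.66 (exact permutation p = 0.065).

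Vmn2r74 differed from WT in opposite directions in the Het groups. Its log2 fold change against WT was -0.68 in AP2e Het and 0.65 in OMP Het, with every AP2e Het library (12.6, 21.9 and 20.2 CPM) below AP2e WT and every OMP Het library (66.9, 66.5 and 61.6 CPM) above OMP WT. The difference between the lines was not tested.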

How the results depend on the processing

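Called V2rs depended on the fit. DESeq2 gave 39 in AP2e cKO against WT (all lower, among 181 genes called), 7 in cKO against Het (4 lower and 3 higher, among 264), 29 in Het against WT (28 lower and 1 higher, among 135), 1 in OMP cKO against WT (among 56), 2 in OMP Het against WT (among 112) and 1 between the WT groups (among 103). edgeR called 29, 27 and 33 genes in the AP2e comparisons. With libraries of 1 line only the AP2e counts were 1, 1 and 0 (among 5, 19 and 9 genes called), and with WT and Het controls together AP2e cKO had 1 (among 9). The main fit did not pair samples of the same number. With the replicate number as a block, Het against WT in the AP2e line had 2 calls, 1 lower and 1 higher. Of these 1 was among the 9, and 11 genes were called in all. The WT groups then had 1, as they did with the name series as a covariate or an adjusted p under 0.1. For the cKO against WT sum over both lines, sign flips over the numbered pairs gave an exact p of 0.25. Per family C CPM the sums (log2) became 0.17 for AP2e cKO against WT, 0.15 for cKO against Het, 0.017 for Het against WT and -0.056 between the WT groups, and over both lines 0.20 for cKO against WT (exact p = 0.01) and 0.15 for cKO against Het (exact p = 0.08). With TPM, AP2e cKO against Het was 0.084, OMP cKO against Het -0.039 and the WT groups -0.012. Per V1r CPM, OMP cKO against WT was -0.13, OMP cKO against Het -0.032, OMP Het against WT -0.093, the WT groups -0.012, and cKO against WT over both lines -0.55 (exact p = 0.01). The difference between the lines for cKO against WT was -0.59 with TPM, -0.067 per family C, -0.85 per V1r (exact p = 0.095) and -0.82 in letter-number libraries alone (exact p = 0.0556, the smallest their assignments allow). For cKO against Het over both lines it was 0.022 with TPM and 0.0026 without the receptors under 50% unique windows, and the difference between the lines 0.12 with TPM and 0.017 in letter-number libraries alone. The cause of these changes was not tested.

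Leaving out 1 library each, calls ran from 4 to 12 in AP2e cKO against WT, 1 to 2 against Het, 0 to 10 in Het against WT (7 to 28, 12 to 32 and 9 to 35 genes called in all) and 0 to 0 elsewhere (0 to 17 genes in all). Sums ran from -0.83 to -0.61, -0.40 to 0.0016 and -0.73 to -0.34 in the AP2e line, -0.0078 to 0.23, -0.063 to 0.12 and -0.046 to 0.18 in the OMP line and -0.032 to 0.19 between the WT groups. Over both lines cKO against WT ran from -0.37 to -0.25 and cKO against Het from -0.17 to 0.027. The differences between lines ran from -0.96 to -0.72 for cKO against WT (exact p up to 0.055) and -0.45 to -0.05 for cKO against Het. For Het against WT they ran from -0.79 to -0.39, with an exact p from 0.005 (at -0.78, without OMP WT replicate 3) to 0.15. Counts thinned to the smallest library gave 14, 2 and 10 calls in the AP2e line (27, 23 and 34 genes in all), and this and the settings on shared windows, V1rs, family C over both lines and a robust prior were chosen after seeing the data.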

Other observations

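One library is titled as an AP2e heterozygote and labelled with the genotype of an AP2e cKO. Its V2rs outside family C summed to 2297 CPM, family C to 362 CPM and V1rs to 2921 CPM, a V2r to V1r ratio of 0.786. Vmn2r78 was at 15.04 CPM, Vmn2r116 at 14.4, Vmn2r122 at 50.6, Vmn2r125 at 21.96, Vmn2r85 at 0.877, Vmn2r98 at 2.83 and Vmn2r38 at 7.89, and Smad4 was at 87.6 CPM. The library was used in no comparison.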
